A study of Mus musculus with 10 samples.

Results

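The proteasome is the protease complex that degrades ubiquitin-tagged proteins in the cytosol and nucleus. Its 20S core particle is a barrel of alpha and beta rings whose active sites face inwards, and the 19S regulatory particle binds ubiquitin chains, unfolds the substrate with a ring of ATPases and feeds it into the core. Cells that lose proteasome activity make more subunits through the transcription factor NRF1, encoded by Nfe2l1. The genes described here were those protein-coding genes of the mouse whose symbol starts with Psma to Psmg followed by a digit, without the 3 immunoproteasome genes Psmb8, Psmb9 and Psmb10. The rule gave 47 of the 27876 genes in the table, and each gene is shown by the transcript of its highest mean level. Of these, 45 encode subunits, assembly chaperones, activators or the regulator PI31, and 2, Psmc3ip and Psme2b, were taken by their name alone.

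RNA was sequenced from whole kidneys of wild-type mice taken on day 14. In 1 group quinolinic acid, a tryptophan breakdown product of the kynurenine pathway, was added to the drinking water at 0.5 g/L (5 libraries), and the controls received vehicle (5 libraries). The labels give no strain, age or sex, leave unsaid whether the kidneys were injured by any other procedure, and put all 10 libraries under 1 batch label, and nothing says more of the replicates than that they are numbered samples. All values come from a finished comparison, the authors' deposited table of vehicle versus quinolinic acid, which gives for each of 85107 transcripts its log2 fold change, its mean log2 level in CPM (read counts scaled to library size), a likelihood ratio and both a raw and an adjusted p. Its header does not name the numerator of the fold change, so a positive sign may mean more or less RNA after quinolinic acid, and every sign below is given as deposited. Libraries could not be viewed singly, so depth and the spread between mice are unknown, p-values speak only of these samples, and the errors are approximate 95% intervals that follow from each fold change and its likelihood ratio.

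No proteasome gene passed the authors' test for a difference between the groups. Of the 47 genes 0 had an adjusted p under 0.05, against 0.0215% of all genes and 0.0141% of all transcripts, and the authors' deposited table gave 0.665 as the smallest adjusted p among the 47. At an unadjusted p under 0.05 there were 3 of 47 genes, the assembly chaperone gene Psmg4, the activator gene Psme1 and the testis subunit gene Psma8, while 5.12% of all genes reached that level. Among genes of at least 1 CPM there were 2 of 44, both positive, against 4.09% of all such genes, or 3.2% when only positive signs are counted. Counted over transcripts, 13 of the 209 transcripts of these genes reached it, against 6.08% of all transcripts. The 13 all belong to Psmg4, Psme1 and Psma8, and most are transcripts of Psme1 with nearly equal values. Transcripts of a gene share reads, so they are not separate results. Most of the genes had a small positive sign, which most genes with short transcripts had too. The sign was positive for 39 of 47, against 57.9% of all genes, and for 38 of the 44 genes that reached a mean of 1 CPM, against 71.8% of all 13115 genes at that level. The median log2 fold change was 0.12 over the 47 and 0.04 over all genes, and 0.13 over the 44 and 0.08 over all genes of at least 1 CPM. Once the trend that all genes show on length and level was subtracted, 13 of the 44 were positive and the median was -0.02. Subunits of one complex are not independent measurements, and the count and median carry no test.

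The approximate intervals limit how large a difference these data allow. They included 0 for 42 of the 44 genes of at least 1 CPM, lay wholly within 0.5 of 0 on the log2 scale for 37, and lay within 1 of 0 for all 44. The lowest bound was -0.27 and the highest 0.68. The standard error of 1 gene was 0.14 at the median (0.10 to 0.19), larger than the SD of 0.08 between the 44 log2 fold changes. Of the 44 genes, 28 lay within 0.05 of their median.

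**Figure D1:**
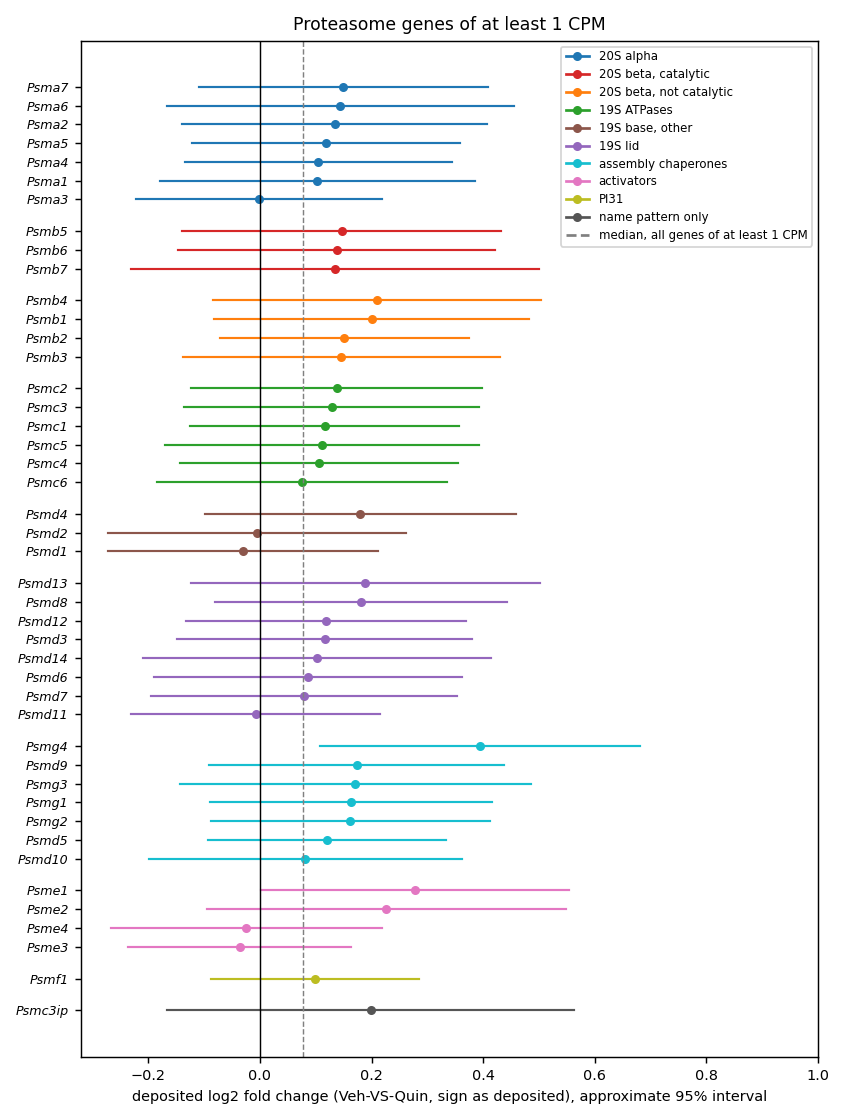
Deposited log2 fold change of each proteasome gene of at least 1 CPM (points) with its approximate 95% interval (bars), grouped and coloured by role; the dashed line is the median of all genes of at least 1 CPM. The points lie between -0.04 and 0.39, and the interval excludes 0 only for Psmg4 and Psme1.

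Promoters are shown for the genes with the highest and the lowest log2 fold change among genes of at least 1 CPM (Psmg4 and Psme3). Shown too are the promoters of the catalytic subunit genes whose window holds a match to the antioxidant response element. NRF1 and NRF2 bind sites of that kind. The other catalytic gene, Psmb7, had no window and was not searched. The sequences are from RefSeq (GRCm38.p6), 5′ to 3′ on the strand of the gene, within 250 bases before the transcription start and outside annotated exons, and capitals mark the motif matches.
Psmg4 chr13:34162714-34162963 (+ strand): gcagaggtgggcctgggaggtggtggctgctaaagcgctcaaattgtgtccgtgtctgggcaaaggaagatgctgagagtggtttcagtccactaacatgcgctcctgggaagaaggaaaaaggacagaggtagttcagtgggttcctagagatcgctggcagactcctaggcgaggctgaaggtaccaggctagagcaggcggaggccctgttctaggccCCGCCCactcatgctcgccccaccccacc
Psme3 chr11:101315963-101316212 (+ strand): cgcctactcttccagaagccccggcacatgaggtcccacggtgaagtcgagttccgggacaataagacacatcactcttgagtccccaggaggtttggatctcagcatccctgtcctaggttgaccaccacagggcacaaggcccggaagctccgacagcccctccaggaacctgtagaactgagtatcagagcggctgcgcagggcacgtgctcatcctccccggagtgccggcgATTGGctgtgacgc
Psmb5 chr14:54618023-54618245 (- strand): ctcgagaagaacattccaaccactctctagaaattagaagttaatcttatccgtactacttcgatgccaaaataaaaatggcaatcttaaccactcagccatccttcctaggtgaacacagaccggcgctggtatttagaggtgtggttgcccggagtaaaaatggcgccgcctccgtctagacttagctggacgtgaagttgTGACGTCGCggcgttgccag
Psmb6 chr11:70525107-70525356 (+ strand): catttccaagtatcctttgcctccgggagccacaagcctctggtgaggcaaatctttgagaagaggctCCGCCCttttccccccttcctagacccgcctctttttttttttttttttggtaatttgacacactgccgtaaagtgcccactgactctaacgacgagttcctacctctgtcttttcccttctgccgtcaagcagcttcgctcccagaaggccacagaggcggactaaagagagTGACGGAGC
The capitals are a GC box (the letters GGGCGG on either strand) in Psmg4, a CCAAT box on the reverse strand in Psme3, an antioxidant response element in Psmb5 that starts 47 bases before the transcription start, and in Psmb6 a GC box and an antioxidant response element that starts 9 bases before it.

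RefSeq windows of 300 bases, 250 before and 50 after the start, were used for 39 of the 47 genes (42 windows). They were searched on both strands for these motifs, where overlaps between motifs were allowed. Windows on chromosome 18, where Psma8 and Psmg2 lie, were left out of the proteasome windows and of all windows. Psmb1, Psmb2, Psmb7, Psmc3, Psmd3 and Psmd7 had no window and were not searched. The antioxidant response element, spelled TGACNNNGC, was in 14.3% of the proteasome windows and in 13.8% of all 19752 windows. The CCAAT box was in 33.3% of the proteasome windows and 37.1% of all windows, and the GC box in 54.8% of the proteasome windows and 51.1% of all windows. The 6 genes with the antioxidant response element were Psmb5, Psmb6, Psmc6, Psmd12, Psmd9 and Psme4. The authors' deposited table gave them log2 fold changes of 0.15, 0.14, 0.08, 0.12, 0.17 and -0.02, all inside the range of the genes without it. A match is a description of the letters and not a measured site.

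The constitutive core particle had positive values in 13 of its 14 genes, and their median log2 fold change was 0.14. In the alpha ring, which gates the entrance of the barrel, the authors' deposited table gave log2 fold changes of 0.10 for Psma1, 0.13 for Psma2, -0.0022 for Psma3, 0.10 for Psma4, 0.12 for Psma5, 0.14 for Psma6 and 0.15 for Psma7. Psma7 (chromosome 2, 180036374 to 180042395, mm10) had the smallest p of the ring in the authors' deposited table, at 57.4 CPM with an interval of -0.11 to 0.41 (p = 0.258, adjusted p 0.794). Psma3 was the exception of the ring, and its 8 transcripts of at least 1 CPM all had a negative sign, from -0.04 to -0.0022.

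The 3 catalytic beta subunits were nearly equal. Psmb5 (chromosome 14, 54614119 to 54618022), the chymotrypsin-like subunit, stood at a log2 fold change of 0.15 with 60.0 CPM (interval -0.14 to 0.43), and the authors' deposited table gave it p = 0.314 and an adjusted p of 0.821. Psmb6, the caspase-like subunit, had 0.14 and Psmb7, the trypsin-like subunit, 0.13 in the authors' deposited table. Exons of Nek6, which runs the other way, cover 34.9% of the Psmb7 transcript, and no source used here says whether reads were counted by strand. Their immunoproteasome counterparts, which replace them under interferon and are not among the 47, had log2 fold changes of 0.02 for Psmb8, 0.11 for Psmb9 and 0.21 for Psmb10, none with an interval that excluded 0. The other beta subunits stood at 0.20 for Psmb1, 0.15 for Psmb2, 0.15 for Psmb3 and 0.21 for Psmb4 in the authors' deposited table. Psmb4 (chromosome 3, 94884093 to 94886961) had the smallest p of the constitutive core particle, with an interval of -0.08 to 0.50 at 92.2 CPM (p = 0.160, adjusted p 0.794 in the authors' deposited table).

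In the regulatory particle 14 of 17 genes were positive, and the median log2 fold change was 0.11. The 6 ATPases of its base, Psmc1 to Psmc6, which unfold the substrate, ran from 0.08 for Psmc6 to 0.14 for Psmc2 in the authors' deposited table. With the mean over all transcripts of each gene the range was 0.02 to 0.12, and Psmc2 was then the lowest of the 6 at 0.02. Between them stood Psmc4 at 0.11, Psmc5 at 0.11, Psmc1 at 0.12 and Psmc3 at 0.13. Psmc2 (chromosome 5, 21785283 to 21803787) had the smallest p of the ATPases (interval -0.12 to 0.40, 50.6 CPM, p = 0.302, adjusted p 0.815 in the authors' deposited table).

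Of the 3 other genes of the base, 2 had small negative values and 1 was positive. Psmd1 and Psmd2, the largest subunits, which hold ubiquitin receptors and substrate shuttles, had log2 fold changes of -0.03 and -0.01 in the authors' deposited table. Psmd4 (chromosome 3, 95032705 to 95042543), a ubiquitin receptor, had 0.18 (interval -0.10 to 0.46, 62.6 CPM, p = 0.205, adjusted p 0.794 in the authors' deposited table). No test compared these genes with each other, and their intervals overlapped.

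Of the 8 lid genes, 7 were positive. Psmd14, the deubiquitinase that removes ubiquitin chains before degradation, had a log2 fold change of 0.10, and the structural lid genes had 0.12 for Psmd3, 0.09 for Psmd6, 0.08 for Psmd7, 0.18 for Psmd8, -0.01 for Psmd11, 0.12 for Psmd12 and 0.19 for Psmd13 in the authors' deposited table. Psmd8 (chromosome 7, 29174188 to 29180701) had the smallest p of the lid (interval -0.08 to 0.44, 64.8 CPM, p = 0.174, adjusted p 0.794 in the authors' deposited table). Exons of Sirt3, which runs the other way, cover 17.2% of the Psmd13 transcript.

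All 7 assembly chaperone genes were positive (median log2 fold change 0.16). Psmg4 (ENSMUST00000147632, chromosome 13, 34162964 to 34178173, mm10), which helps to build the alpha ring, had the highest value of the 44 genes, 0.39 on the log2 scale or 1.31-fold (interval 0.11 to 0.68), at 5.61 CPM. The authors' deposited table gave it p = 0.00712 with an adjusted p of 0.677, and gave its other transcript a log2 fold change of 0.40. The other core chaperone genes stood at 0.16 for Psmg1, 0.16 for Psmg2 and 0.17 for Psmg3, and those that assemble the base of the regulatory particle at 0.12 for Psmd5, 0.17 for Psmd9 and 0.08 for Psmd10 in the authors' deposited table. Exons of Gm26938 on the same strand cover 26.8% of the Psmg3 transcript. Pomp, the chaperone of core maturation, which the symbol rule does not take, had 0.16 in the authors' deposited table.

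The activators split. Psme1 and Psme2, neighbours on chromosome 14 that encode the interferon-inducible PA28 alpha and beta caps, had positive values, while Psme3 and Psme4, which encode the nuclear caps PA28 gamma and PA200, had small negative values. Psme1 (ENSMUST00000173544, 55578456 to 55581528) stood at 0.28 on the log2 scale or 1.21-fold (interval 0.0015 to 0.55) with 49.1 CPM, and the authors' deposited table gave it p = 0.0488 with an adjusted p of 0.794. The transcript that represents it is annotated as retaining an intron, the coding transcript gave 0.28 as well, and its 12 transcripts ranged from 0.24 to 0.31. Psme2 had 0.23 (interval -0.10 to 0.55), but 59.3% of the 50-base words of its transcript also occur in its copy Psme2b or in the gene model Gm7928, so its reads may be shared. Psme3 (chromosome 11, 101316213 to 101323537) was the lowest of the 44 genes at -0.04 (interval -0.24 to 0.16, 36.7 CPM, p = 0.722, adjusted p 0.978 in the authors' deposited table), and Psme4 had -0.02. With the mean over all transcripts of the gene, Psme3 was at -0.20 and Psme4 at -0.27. With the trend of all genes on length and level removed, Psme1 was at 0.15, Psme2 at 0.05, Psme3 at -0.13 and Psme4 at -0.0031. Psmf1 (chromosome 2, 151715812 to 151741310), which encodes the regulator PI31, had 0.10 (interval -0.09 to 0.29, 14.2 CPM, p = 0.297, adjusted p 0.814 in the authors' deposited table).

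Scarce genes made up the rest. Psma8, the alpha subunit of spermatogenic cells (ENSMUST00000040860), stood at -1.05 on the log2 scale with only 0.163 CPM (interval -1.80 to -0.30), and the authors' deposited table gave it p = 0.00618 with an adjusted p of 0.665. Psmb11, the subunit of thymic epithelium, was at 0.0226 CPM with -0.62 (interval -3.66 to 2.43), and Psme2b at 0.262 CPM with 0.04 (interval -0.66 to 0.73) in the authors' deposited table. Of 4 measured germ cell markers, none reached 1 CPM (0.405 CPM in sum), with Prm1 and Prm2 at a log2 fold change of 0.00 and Ddx4 at 0.60 in the authors' deposited table. Of the 3 thymic epithelial markers, which include Psmb11 itself, none reached 1 CPM either (0.235 CPM in sum), with log2 fold changes of 2.88 for Foxn1 and -1.39 for Aire in the authors' deposited table. The part of such cells in the values of Psma8 and Psmb11 was not tested. Psmc3ip, a meiotic recombination factor named for its binding to Psmc3, had 0.20 at 1.29 CPM (interval -0.17 to 0.56, p = 0.286, adjusted p 0.807 in the authors' deposited table), and 29.8% of its transcript overlaps exons of Mlx on the other strand.

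Levels were compared per kilobase of the coding transcript, a choice made after the values had been seen. The median was 66.7 CPM per kb for the catalytic beta genes, 55.3 for the other beta genes, 45.2 for the alpha ring, 34.1 for the ATPases, 30.6 for the other base genes and 24.5 for the lid. It was 25.2 CPM per kb for the activators, 10.1 for the assembly chaperones and 3.73 for Psmf1. For 5 genes the transcript of highest level is not a coding one, and its length moves the value. Psma7 stood at 62.8 CPM per kb on its coding transcript and 37.9 on its longer retained-intron transcript, and Psme1 at 44.1 and 24.7. With the transcripts of highest level the median was 37.9 CPM per kb for the alpha ring and 19.3 for the activators, so that the order of activators and lid turned round. Psmb6 was highest with 93.2 CPM per kb and Psmb4 next with 77.9, and the lowest subunit of the ubiquitous particle was Psma3 with 4.69. These are means over all libraries of both groups, so their spread between mice is unknown and the order of neighbours was not tested. Counts of the same transcript stretch can be split with processed copies, and over 20% of the 50-base words also occurred in another gene for Psma3, Psma4, Psma5, Psmb3, Psmb5, Psmd2, Psme2, Psme2b and Psmg3. The highest such share was 69.3% for Psme2b, and it was 57.1% for Psmb5, 55.8% for Psmb3 and 54.5% for Psma5. The levels and fold changes of these genes are uncertain to that extent.

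**Figure D2:**
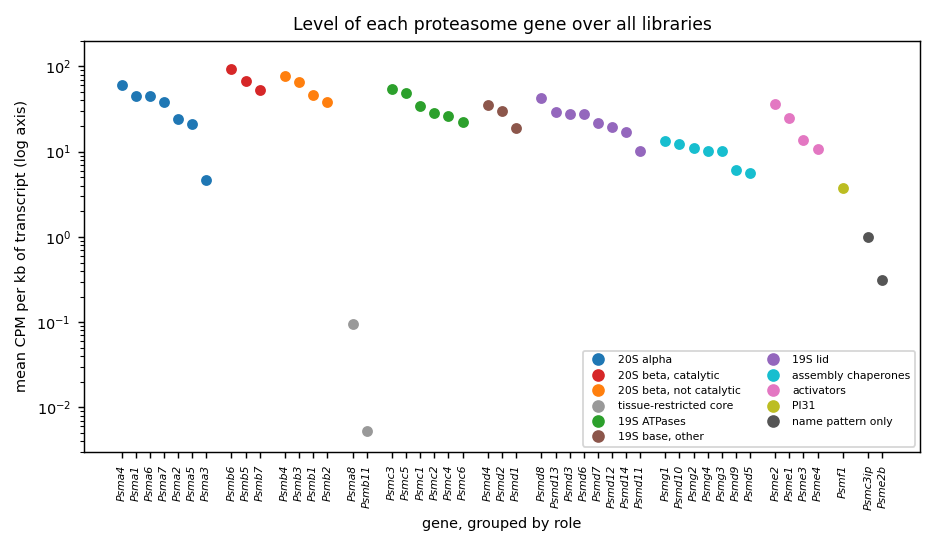
Mean level of each of the 47 genes over all libraries in CPM per kilobase of the representing transcript (log axis), grouped by role. Core and regulatory subunits lie between 4.69 and 93.2, while Psma8 and Psmb11, the testis and thymus subunits, lie at 0.0965 and 0.00532.

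The log2 fold change of the genes went with the length of their transcripts. Spearman's rho of fold change and length was -0.51 across the 44 genes that reached 1 CPM, and across all 13115 such genes it was also -0.51. These are values across genes, which share libraries and are not independent replicates. All 7 proteasome genes under 1000 nt and all 25 from 1000 to under 2000 nt were positive, with medians of 0.15 and 0.13. Of the 12 genes of 2000 nt or more, 6 were positive, and their median was 0.04. Coding genes of the same length classes had medians of 0.18, 0.15 and 0.05, with a positive sign for 93.9%, 91.4% and 65.0%. The 6 genes with a negative sign, Psma3, Psmd1, Psmd2, Psmd11, Psme3 and Psme4, were each represented by a transcript of 2664 nt or more, and only 3 other genes, Psma2, Psmd5 and Psmf1, had one that long. The coding transcripts of Psma7 and Psme1 are shorter than those that represent them, with 914 and 1112 nt against 1515 and 1986 nt.

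The trend of the fold change on length and mean level over all genes of at least 1 CPM was then removed. Most of the proteasome genes were left with a small negative value. Of the 31 genes of the constitutive core and regulatory particles, 6 had a positive residual (19.4%). A positive residual was left for 13 of the 44 genes (29.5%), against 48.8% of all genes at that level, and the median residual was -0.02. The trend at the length and level of each proteasome gene ran from -0.02 for Psme4 to 0.19 for Psmb3. The residual was 0.22 for Psmg4, 0.15 for Psme1 and -0.13 for Psme3, and 0 of the 44 genes had a residual past an unadjusted p of 0.05. The share of all genes past that level was not counted, so the 0 cannot be set against it. The 3 catalytic beta genes and the 6 ATPases all had residuals just under 0, from -0.05 to -0.0034. How far the trend reflects transcript length itself was not tested.

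**Figure D3:**
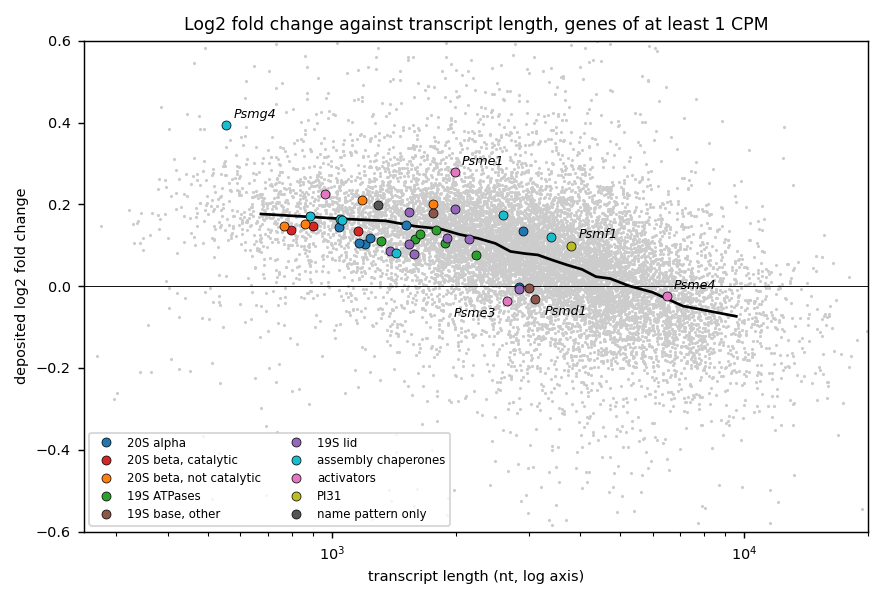
Deposited log2 fold change against transcript length in nt (log axis) for genes of at least 1 CPM (grey), with the median in 20 length classes (black line) and the proteasome genes coloured by role; 105 genes beyond 0.6 are not drawn. The proteasome genes follow the line down from Psmb3 to Psme4, with Psmg4 and Psme1 above it.

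**Figure D4:**
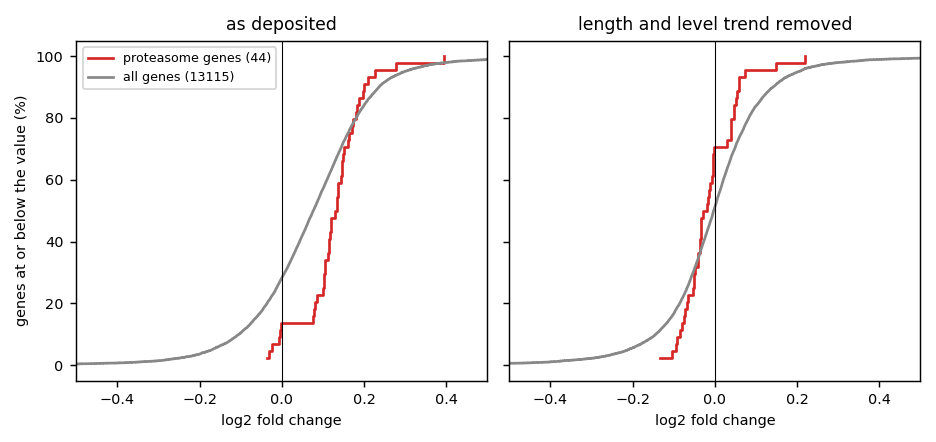
Cumulative share of genes (%) by log2 fold change as deposited (left) and with the length and level trend removed (right), for the 44 proteasome genes and all 13115 genes of at least 1 CPM. The proteasome curve lies to the right of all genes at the median in the left panel (0.13 and 0.08) and just left of them in the right panel (-0.02 and -0.0030).

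The same genes also differed along their own length. The table holds 199 transcripts of at least 1 CPM for the proteasome genes, many of them short annotated fragments that cover only the start or the end of the gene, and for 22 genes the centres of the outermost such transcripts lay at least 0.25 of the merged exon length apart. This split was made after the values of the transcripts had been seen. In Psma1, Psma3, Psma4 and Psme3 the transcript nearest the 3′ end was the one that represents the gene. In Psma5 the representing transcript was the one nearest the 5′ end. In all 22 genes the authors' deposited table gave the transcript nearest the 3′ end a higher log2 fold change than the transcript nearest the 5′ end, as in 88.9% of 4566 coding genes with such a pair. The median was 0.13 at the 3′ end and 0.04 at the 5′ end of the proteasome genes, with a median difference of 0.15, and 0.11 at the 3′ end and -0.05 at the 5′ end over the coding genes, also with a median difference of 0.15.

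The difference was widest in Psme4, Psmd2 and Psmd1. Psme4 had -0.0038 at the 3′ end and -0.55 at the 5′ end, at 4.90 CPM for the 3′ transcript and 1.22 CPM for the 5′ transcript. Psmd2 had 0.03 at the 3′ end and -0.42 at the 5′ end, and Psmd1 had 0.05 at the 3′ end and -0.25 at the 5′ end. Psme3 had a negative sign in both transcripts, with -0.25 at the 5′ end and -0.04 in the transcript that represents the gene. The centre of the latter lies at 0.53 of the merged exon length, so the 3′ end of Psme3 has no separate value. Shorter genes showed it too, with 0.26 at the 3′ end and -0.0013 at the 5′ end of Psmc3, and 0.22 at the 3′ end and -0.0035 at the 5′ end of Psmb6. In Psme1 the ends were close, with 0.31 at the 3′ end and 0.24 at the 5′ end, and in Psmd6 closest, with 0.08 at the 3′ end and 0.07 at the 5′ end. Transcripts of a gene share reads, none of these values passed the adjusted test in the authors' deposited table, and the sources used here hold no measure of RNA integrity, whose part in the pattern was not tested.

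**Figure D5:**
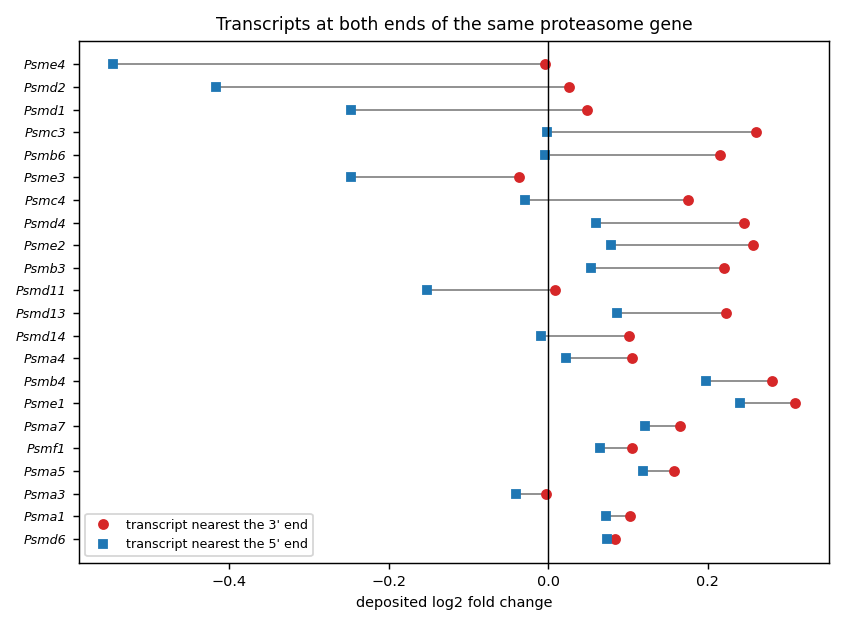
Deposited log2 fold change of the transcripts nearest the 3′ end (red circles) and nearest the 5′ end (blue squares) of the 22 proteasome genes with such a pair, in order of the difference. The red point lies right of the blue one in each gene, by 0.01 in Psmd6 up to 0.54 in Psme4.

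Other genes of the ubiquitin and proteasome system had no call either. Of 11 further proteasome genes listed 10 were measured and 9 were positive, at a median log2 fold change of 0.17. The smallest p among them belonged to the ubiquitin receptor Adrm1 (0.24, interval -0.02 to 0.51, p = 0.0742) and the deubiquitinase Usp14 (0.18, p = 0.0937), and the authors' deposited table gave each an adjusted p of 0.794. The trend removed, Adrm1 and Usp14 kept residuals of 0.20 and 0.15, and their transcripts are 4131 and 4726 nt long. Of the 7 genes of NRF1, NRF2 and their processing, 5 were positive and the median was 0.05. Ddi2, the protease that activates NRF1, had -0.30 (interval -0.54 to -0.07, p = 0.0114, adjusted p 0.725), Nfe2l1 itself -0.06 and Nfe2l2, which encodes NRF2, 0.20 in the authors' deposited table. Among 15 genes of ubiquitin supply and shuttling, 12 were positive and the median was 0.07, with values up to 0.39. At an unadjusted p under 0.05 in the authors' test there were 0 of the 10, 1 of the 7 and 3 of the 15. Of all genes of at least 1 CPM, 4.09% reached that level.

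As deposited, other large complexes had medians near that of the proteasome genes. The 80 genes of the cytosolic ribosome that reached 1 CPM were all positive, with 0.18 as the median log2 fold change and 0.01 as the median residual. Of 77 genes of the mitochondrial ribosome 76 were positive (median 0.16, median residual 0.02), as were all 7 genes of the TRiC chaperonin at that level (median 0.13, median residual 0.02). The proteasome genes stood at 0.13 with a median residual of -0.02. A positive residual was left for 57.5% of the cytosolic and 55.8% of the mitochondrial ribosomal genes and for 71.4% of the TRiC genes. It was left for 29.5% of the proteasome genes and 48.8% of all genes of at least 1 CPM. Median transcript lengths of the lists, in this order, were 941.5, 1316 and 2394 nt. As deposited, 93.9% of coding genes under 1000 nt were positive, 91.4% from 1000 to under 2000 nt and 65.0% from 2000 nt. No test of a difference between these lists was made.

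The tissue was checked by its markers. All 10 kidney epithelial markers exceeded 6 CPM, among them Slc34a1 at 1430 and Umod at 1274 CPM, and had a median log2 fold change of 0.18 with 7 of 10 positive. Of 8 leukocyte markers, whose cells are rich in Psme1, Psme2 and the immunoproteasome, 7 were positive, with a median of 0.07, a summed mean level of 482 CPM and 0 genes at an unadjusted p under 0.05. All 8 hepatocyte markers were positive, with a median of 0.82, or 0.52 for those of at least 1 CPM. The 5 of them at an unadjusted p under 0.05 summed to 13.6 CPM, and the other 3 to 107 of the 121 CPM of the list. All 8 adipocyte markers were positive, with a median of 3.32. The 7 of them at an unadjusted p under 0.05, with log2 fold changes of 1.48 to 4.61, summed to only 2.52 CPM. Fabp4, at a log2 fold change of 0.19, made up 21.7 of the 24.2 CPM of the list. Over all genes 5.12% had an unadjusted p under 0.05. Prm1 and Prm2, the protamines of sperm, lay at 0.0260 and 0.0231 CPM. Their part in the values of the proteasome genes was not tested, and in whole kidney fewer cells of a type and less RNA per cell cannot be told apart.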

How the data were processed

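RNA was measured by sequencing in 5 kidney libraries from mice given quinolinic acid and 5 from mice given vehicle, grouped by the treatment in the sample titles. The submitters' processing notes name edgeR, STAR 2.5.3a, FastQC 0.11.2, Subread 1.4.6 with featureCounts, and the build mm10. Annotation release, filters and strand setting are not given in the sources used here. The authors deposited, per the file headers, edgeR's likelihood-ratio test per GENCODE transcript: the log2 fold change, the mean log2 CPM, the likelihood ratio (a score on 1 degree of freedom), the p-value and the adjusted p. These 5 columns belong to the comparison and to no single sample.

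Version numbers were dropped and identifiers joined to GENCODE vM21, on the GRCm38 assembly, where 98.0% of 85107 matched. Each gene is represented by 1 transcript, that of highest mean level, and counted as called when the deposited adjusted p was under 0.05. The size of the log2 fold change over the root of its likelihood ratio served as standard error for 95% intervals; they cover the authors' model only. The trend on log2 length and mean level was a loess fit (span 0.5, R 4.3.3) over genes of at least 1 CPM. It was tried on simulated data with a linear trend. The effects planted there were larger than any log2 fold change of the proteasome genes at that level, so the trial does not cover differences of their size. Other steps used Python 3.11.15, numpy 2.4.6, pandas 2.3.3 and matplotlib 3.10.9. Every proteasome gene is named; full statistics are given for the smallest p of each role, the highest and lowest fold change of at least 1 CPM, and each p under 0.05. In the other lists the 2 genes with the smallest p are named, apart from a few genes not reported here, and Pomp, Nfe2l1, Nfe2l2 and single markers were added with their values known. Members and lists were chosen with earlier results of these data known. Alternatives covered other representing transcripts, level filters, thresholds, adjustments, centring and removal of the trend.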

Additional observations from a re-analysis of the deposited data

How the results depend on the processing

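The count of 0 called proteasome genes was the same at an adjusted p under 0.1, with adjustment over 1 transcript per gene or over genes that reached 1 CPM, for coding transcripts and after removal of the trend on length and level. The positive sign of 39 of 47 genes and the median log2 fold change of 0.12 moved little with the coding transcript (39), the mean over transcripts (38), filters at 1 CPM (38 of 44) or 10 CPM (35 of 41), the immunoproteasome genes added (42 of 50) or Psmc3ip and Psme2b left out (37 of 45). With the median of all genes of at least 1 CPM (0.08) subtracted, 37 of 47 genes stayed positive and the median was 0.043. After removal of the trend on length and level, 13 of 44 were positive and the median was -0.024. A p under 0.05 was then left for 0 genes, against 3, and the share over all genes was not counted. Psma8 lies under 1 CPM and has no value there. Of the 44 genes, 25 went to a negative value with that trend removed and 0 to a positive one. Among the genes given in full these were Psma7, Psmb5 and Psmc2, at -0.0046, -0.036 and -0.0034, and the cause was not tested. No paired analysis was possible because the deposited columns hold 1 finished comparison and no values per library, so leaving out single libraries was not run either. Without counts per library, depth limits the scarce genes Psma8, Psmb11 and Psme2b to an unknown degree.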
